A study of Rattus norvegicus and Ovis aries with 113 samples.

Results

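The genes described here are 10 genes by which microglia and other macrophages are recognised in RNA measurements. CX3CR1, P2RY12 and TMEM119 form the resident class, 3 genes that are much higher in the microglia of the brain than in macrophages of other organs. AIF1, C1QA, C1QB, C1QC, CSF1R, TREM2 and TYROBP form the shared class, 7 genes that microglia have in common with macrophages elsewhere. The members came from a list of symbols, matched after upper-casing, and all 10 were found among the 31304 genes of the sheep count table and the 38675 genes of the rat count table. The samples were bulk RNA-seq libraries, 113 in all. From each of 5 post-pubertal male sheep (Ovis aries, numbered 687, 688, 690, 694 and 699) there were 10 dissected regions of the same hemisphere (basal ganglia, cerebellum, entorhinal cortex, frontal cortex, hippocampus, motor cortex, pons, posterior parietal cortex, prefrontal cortex and visual cortex) and a sperm sample. From post-pubertal Sprague Dawley rats there were whole brains of 14 females and 15 males, ovaries of the 14 females, and 15 samples labelled sperm that were taken as seminal fluid from the males. No treatment and no genetic change was given for any group, and the sheep breed is not given in the sources used here.

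Microglia are the macrophages that live in the brain. Their survival depends on CSF1R, the receptor for the cytokines CSF1 and IL34. CX3CR1 is the receptor for the neuronal chemokine CX3CL1, P2RY12 is a receptor for ADP that guides microglial processes, and TMEM119 is a membrane protein of microglia. TREM2 is a lipid-sensing receptor that signals through the adaptor TYROBP, which also serves receptors of neutrophils and natural killer cells. C1QA, C1QB and C1QC encode the chains of C1q, which starts the classical complement cascade, and AIF1 encodes the calcium-binding protein IBA1, the usual histological label of microglia and macrophages. AIF1 has also been described in male germ cells. In a bulk sample, fewer cells of a type and less RNA per cell cannot be told apart.

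Levels are given as CPM, counts scaled to a library total of 1000000, and are compared only between samples, never between genes, because exon lengths were not used here. Depth was 46697655 to 72403425 counts per library in sheep brain, 13698889 to 65146176 in sheep sperm, 38164144 to 119206015 in rat brain, 50485490 to 60265909 in ovary and 13714087 to 65107730 in rat sperm. Defining markers of the labelled tissues were present: the synaptic gene SNAP25 was at 141 to 2688 CPM in every sheep brain library, the protamine PRM1 at 41.4 to 1033 CPM in sheep sperm and 10.7 to 5899 CPM in rat sperm, and the steroid-synthesis gene STAR at 562 to 2317 CPM in ovary. The flagellar gene AKAP4 went against the sheep labels, with 0.122 to 5.71 CPM in sperm and 21.9 to 33.8 CPM in cerebellum. In rat brain libraries 1 (female) and 4 (male), 86.9% and 83.1% of the counts lay in 3 ribosomal RNA entries, so both had the lowest plain CPM of every member. After scaling by TMM, a method that sets libraries to a common level through the bulk of their genes, the 10 members of these libraries summed to 207 and 259 CPM, inside the range of the rest. TMM-scaled CPM is therefore used where the members are compared with rat brain, while genes of other lists are given in plain CPM.

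In the rat genome (GRCr8, RefSeq gene table) the C1q genes are neighbours on chromosome 5, with C1qb at 154402276 to 154407827, C1qc at 154410845 to 154414208 and C1qa at 154417086 to 154419933. Cx3cr1 lies on chromosome 8 at 128661294 to 128679048 and overlaps a long non-coding entry. P2ry12 lies on chromosome 2 at 145631487 to 145673194, inside the span of Med12l. Whether reads were counted by strand is not given in the sources used here, so reads of these 2 genes and of their overlapping partners may not have been separated. Promoter sequences of 300 bases, from 250 before to 50 after the start, were found for 5 of the 10 rat genes in the RefSeq-derived table. The 4 printed here, 5′ to 3′, are those of C1qb and C1qa, of the resident gene Cx3cr1 and of Trem2. C1qb and C1qa lie on either side of C1qc and their levels stayed close. Trem2 is the shared gene that was lowest against brain in rat sperm. The Cx3cr1 window lies inside the gene span given above, not at its end. Capitals mark the core of the PU box bound by the macrophage factor PU.1 (GAGGAA), an extended ETS site (AGGAAGT) and an AP-1 site (TGANTCA), searched on both strands. The first 2 motifs share the letters AGGAA or GAGGAA in part and can overlap.
C1qb (chr5:154407778-154408077, minus strand): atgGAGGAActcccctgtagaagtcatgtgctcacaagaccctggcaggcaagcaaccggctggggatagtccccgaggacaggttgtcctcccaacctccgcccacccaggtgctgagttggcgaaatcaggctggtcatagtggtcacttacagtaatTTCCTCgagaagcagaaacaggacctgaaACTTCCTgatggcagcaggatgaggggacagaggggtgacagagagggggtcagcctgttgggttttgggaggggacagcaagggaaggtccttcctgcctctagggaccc
C1qa (chr5:154419884-154420183, minus strand): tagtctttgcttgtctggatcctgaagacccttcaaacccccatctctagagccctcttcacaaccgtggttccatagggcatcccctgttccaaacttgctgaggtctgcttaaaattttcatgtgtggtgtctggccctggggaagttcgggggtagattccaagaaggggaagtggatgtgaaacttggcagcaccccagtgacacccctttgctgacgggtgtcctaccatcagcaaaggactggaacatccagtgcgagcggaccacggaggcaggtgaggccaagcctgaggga
Cx3cr1 (chr8:128677017-128677316, minus strand): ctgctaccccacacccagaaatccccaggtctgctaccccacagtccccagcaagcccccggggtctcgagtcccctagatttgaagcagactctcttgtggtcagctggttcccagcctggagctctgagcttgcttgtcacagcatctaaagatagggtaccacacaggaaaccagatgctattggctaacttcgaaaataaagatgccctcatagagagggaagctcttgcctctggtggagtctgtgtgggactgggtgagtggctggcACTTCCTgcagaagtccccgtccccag
Trem2 (chr9:20151730-20152029, minus strand): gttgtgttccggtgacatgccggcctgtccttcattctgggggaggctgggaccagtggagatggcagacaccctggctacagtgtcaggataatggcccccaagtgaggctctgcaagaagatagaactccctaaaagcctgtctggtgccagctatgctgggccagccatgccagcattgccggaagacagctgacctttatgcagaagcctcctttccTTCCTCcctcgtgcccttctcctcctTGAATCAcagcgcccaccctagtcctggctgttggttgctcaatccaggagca
GAGGAA was found in the windows of C1qb, Trem2 and Csf1r, which is 3 of 5, and in 27.6% of 33469 rat promoters of the same length. AGGAAGT was found in C1qb and Cx3cr1 and in 8.41% of all promoters, and TGANTCA in Trem2 and in 7.33%. The C1qa window held none of these letters, although C1qa and C1qb were the pair with the highest correlation in rat sperm and in rat brain without libraries 1 and 4. A match here is a description of letters, not of binding.

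In the sheep brain, the cerebellum had the lowest median of the 10 regions for all 10 genes. Differences among the 10 regions were tested with edgeR's quasi-likelihood test with Benjamini-Hochberg adjustment over all 21147 genes tested, and a member was called at an adjusted p below 0.05. All 10 members were called, where 76.7% of all genes were called, with adjusted p-values from 2.56e-07 (C1QC) to 1.70e-05 (C1QA). Against the mean of the other 9 regions, all 10 members fell in the cerebellum, where 60.7% of genes were called in either direction and 31.6% were called lower. The members' median log2 fold change was -2.29, beside -0.045 over all genes.

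**Figure D1:**
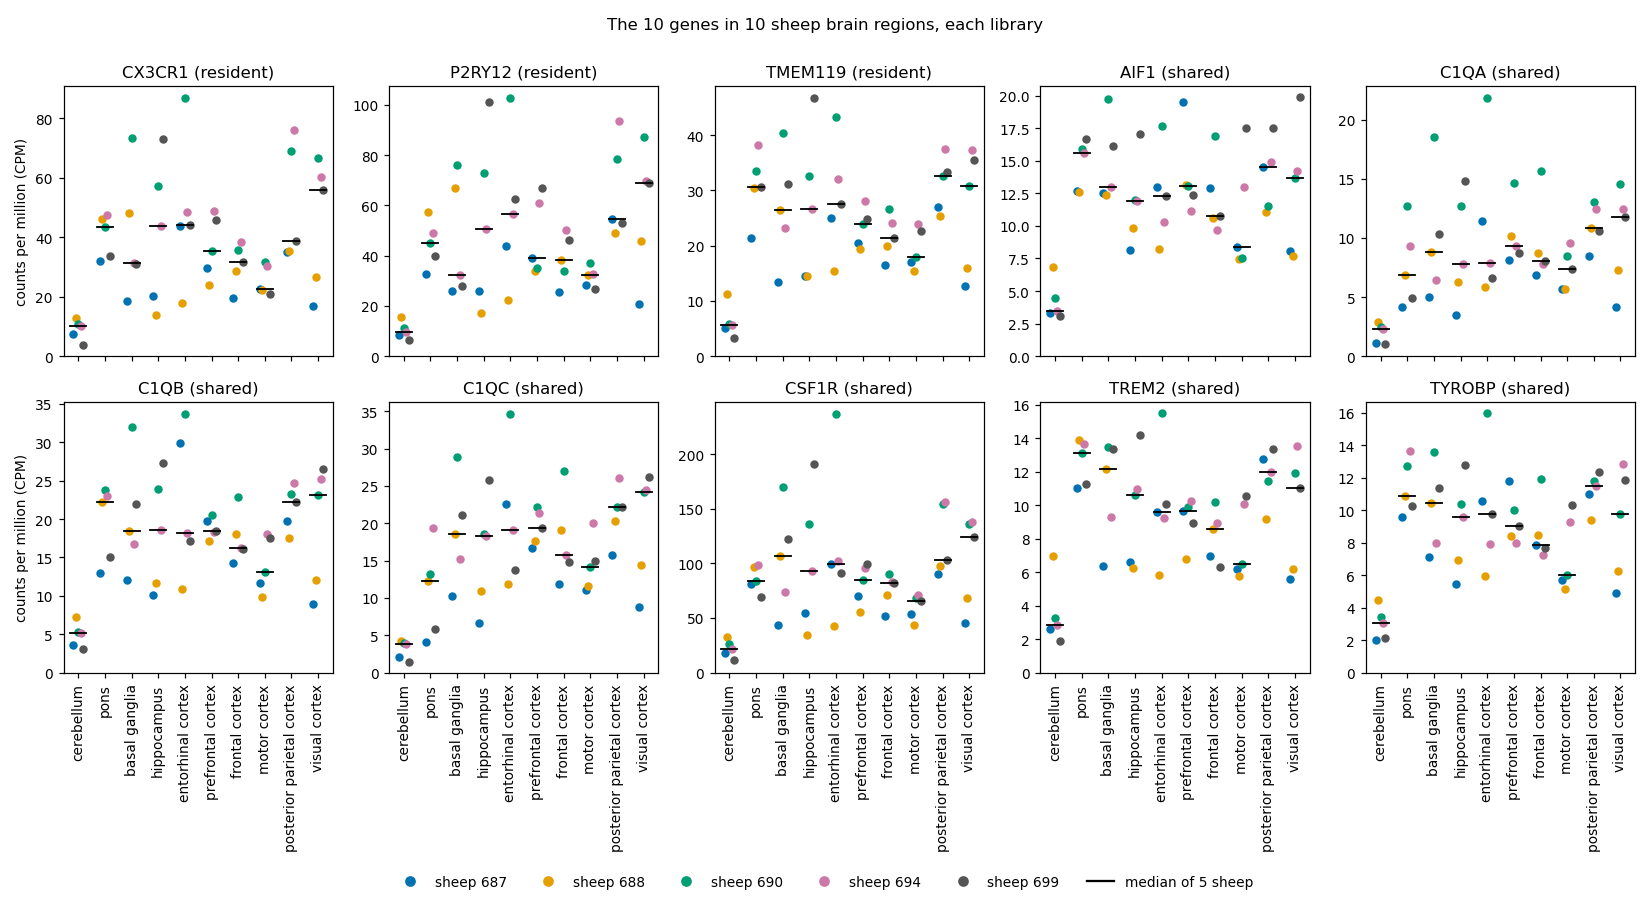
CPM of each of the 10 genes (vertical axis, linear and from 0, one panel per gene) in the 10 sheep brain regions (horizontal axis); each point is 1 library, colours mark the 5 sheep and bars are medians of 5. The 5 cerebellum points are low in every panel, and for 8 of the 10 genes they lie under every point of the other 9 regions. The share of all genes without such overlap is not given here.

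Among the resident genes, CX3CR1 was at 7.52, 12.8, 10.6, 9.98 and 3.89 CPM in the cerebella of sheep 687, 688, 690, 694 and 699, against a median of 35.4 CPM (13.8 to 86.9) in the 45 libraries of the other regions. The 2 sets of values did not overlap, and the fitted log2 difference was -2.35 (SE 0.34, adjusted p = 1.07e-07). P2RY12 was at 8.32, 15.6, 11.2, 9.60 and 6.26 CPM in the same order, against 45.9 CPM (17.3 to 103) elsewhere. Again no cerebellum reached the lowest value of another region, and the log2 difference was -2.46 (SE 0.33, adjusted p = 1.83e-08). TMEM119 was at 5.09, 11.2, 5.88, 5.59 and 3.35 CPM, against 25.4 CPM (12.7 to 46.8), a log2 difference of -2.28 (SE 0.27, adjusted p = 8.64e-10). In all 3 resident genes sheep 688 had the highest cerebellum and sheep 699 the lowest.

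Among the shared genes, the complement chain C1QC showed the lowest fitted value, -2.70 on the log2 scale (SE 0.32, adjusted p = 1.25e-09). Its cerebella were at 2.12, 4.24, 3.94, 3.88 and 1.46 CPM, and 1 pons library, that of sheep 687 at 4.05 CPM, reached into that range. The other chains fell alike, C1QA by 2.49 (SE 0.34, adjusted p = 3.94e-08) and C1QB by 2.19 (SE 0.26, adjusted p = 1.54e-09). CSF1R, the survival receptor, was at 18.2, 32.6, 26.0, 21.1 and 11.6 CPM in the cerebella, against 89.8 CPM (34.8 to 236) elsewhere, a log2 difference of -2.29 (SE 0.32, adjusted p = 5.77e-08). The values of CSF1R did not overlap. The smallest difference was that of TREM2, -1.72 (SE 0.24, adjusted p = 5.45e-08). Its cerebellum of sheep 688 was at 6.98 CPM. That was above the motor cortex (5.76), entorhinal cortex (5.86), visual cortex (6.20), hippocampus (6.27) and prefrontal cortex (6.77) of the same sheep. The remaining regions, at 8.58 to 13.9 CPM, were higher. In that sheep the cerebellum was not the lowest region for TREM2; for the other 9 genes it was the lowest in 5 of 5 sheep. TYROBP fell by 1.89 (SE 0.23, adjusted p = 2.17e-09) and AIF1 by 1.84 (SE 0.24, adjusted p = 8.40e-09). Summed over the 10 genes, the cerebella held 37.7 to 105 CPM (median 67.0) and the other regions 132 to 609 CPM (median 289).

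Other lists moved in the cerebellum as well, and their part in the result was not tested. All 10 of 10 further microglia-enriched genes tested fell there, among them P2RY13, an ADP receptor (log2 difference -2.42, SE 0.28, adjusted p = 7.77e-10), SALL1, a transcription factor of microglia (-2.24, SE 0.27, adjusted p = 1.67e-09), and the integrin ITGAM (-2.46, SE 0.38). Of 11 pan-myeloid genes, 9 fell, with PTPRC at -2.10 (SE 0.33), and 1 rose. CD68, a lysosomal macrophage marker, was at 0 counts in every sheep library and so marks nothing here. Endothelial genes fell in 5 of 5, lymphocyte genes in 6 of 7, oligodendrocyte genes in 4 of 6 and astrocyte genes in 3 of 6, whereas 4 of 5 neuronal genes rose and none fell. The summed neuronal markers were at 4613 to 5239 CPM in the cerebella and 391 to 4693 CPM elsewhere, and the summed endothelial markers at 54.0 to 91.3 and 48.9 to 865 CPM. Of the partners of the members, IL34 was at a median of 10.8 CPM in the cerebellum and 34.5 CPM in the pons, its highest region, and fell by 1.35 (SE 0.14, adjusted p = 6.48e-11). CSF1 fell by 0.99 (SE 0.25, adjusted p = 6.17e-04). CX3CL1, the ligand of CX3CR1, differed by -0.34 (SE 0.16, adjusted p = 0.0642), which did not pass the test. Of 5 genes tested in the TREM2 and TYROBP pathway, 3 fell (INPP5D, SYK and PLCG2), and of 11 complement genes 6 fell, C3 by 2.40 (SE 0.28), and 2 rose.

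Among the remaining 9 regions the values overlapped more. The order of the medians over regions began with the visual cortex for 6 genes, the posterior parietal cortex for 2 and the pons for 2 (AIF1 and TREM2), and the motor cortex stood second from the bottom for 8 genes and the pons for 2 (C1QA and C1QC). Over all 10 regions, neighbours in that order overlapped in 8 of 9 steps for 8 genes and in 9 of 9 for C1QC and TREM2. The 1 step without overlap was the step down to the cerebellum, so among the remaining 9 regions all neighbours overlapped. The summed level ran from 211 CPM in the motor cortex to 391 CPM in the visual cortex, a ratio of 1.86 between medians. For single genes the ratio of the highest to the lowest of these 9 medians was 2.49 for CX3CR1, 2.14 for P2RY12, 2.02 for TREM2 and 1.71 to 1.97 for the other 7. With the cerebellum left out, none of the 10 members was called by edgeR across the other 9 regions, where 54.1% of genes were, and 1 was at an unadjusted p below 0.05. The adjusted p-values were then 0.0567 (TREM2) to 0.567 (C1QA). With the animal added as a block in that same fit, 6 were called, where 61.7% of genes were: C1QC (adjusted p = 0.00861), TMEM119 (0.00974), TREM2 (0.0104), CSF1R (0.0307), CX3CR1 (0.0402) and TYROBP (0.0476).

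In 3 single regions members were higher than the average of the 9 remaining ones, an average that holds the low cerebellum. In the posterior parietal cortex 7 members were higher, where 10.4% of genes were called and 7.99% were called higher, P2RY12 most by 0.91 on the log2 scale (SE 0.24, adjusted p = 0.0111). P2RY12 was there at 54.5, 48.9, 78.3, 93.5 and 53.0 CPM in sheep 687 to 699, inside the range of the other regions. With the animal block C1QA and C1QB were called too. Without the cerebellum no member was called there by edgeR, where 3.75% of genes were, and 6 were at an unadjusted p below 0.05; the 10 differences lay between 0.24 and 0.64. Adding the block to that fit again gave no call (5.64% of genes; 8 members at an unadjusted p below 0.05). All 5 endothelial genes tested were called higher in the posterior parietal cortex as well, with a median log2 difference of 1.33, and their sum was at 101 to 865 CPM there; their part in the members' values was not tested. In the basal ganglia 6 members were higher (27.6% of genes called, 14.6% higher), AIF1 by 0.62 (SE 0.19, adjusted p = 0.0109); with the block C1QA and TMEM119 were called too, and without the cerebellum none was (25.2% of genes, or 28.4% with the block). Of 7 lymphocyte genes, 4 were higher and 2 lower in the basal ganglia. In the pons 3 members were higher (48.3% of genes called, 25.7% higher): TREM2 by 0.57 (SE 0.20, adjusted p = 0.0149), TMEM119 by 0.51 (SE 0.21, adjusted p = 0.0396) and TYROBP by 0.48 (SE 0.19, adjusted p = 0.0298). A count of 3 of 10 is near the share of all genes called higher there. All 6 oligodendrocyte genes were called higher in the pons, with a median log2 difference of 2.76, and 6 of 11 pan-myeloid genes were higher and 1 lower; the part of these in the members' values was not tested. In the entorhinal, frontal, motor, prefrontal and visual cortex and the hippocampus no member was called by edgeR or by DESeq2, where 3.36%, 7.85%, 3.55%, 6.31%, 5.65% and 11.0% of genes were called. At an unadjusted p below 0.05 edgeR gave 1 member in the prefrontal cortex, 3 in the visual cortex and none in the other 4 regions. These calls changed with the sheep. Without sheep 687, 688, 690, 694 and 699 in turn, 2, 6, 2, 0 and 4 members were called in the posterior parietal cortex, 7, 3, 0, 4 and 1 in the basal ganglia and 1, 1, 1, 1 and 3 in the pons. The shares of all genes called in these fits are not given here, so these counts cannot be set against them.

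In the pons, C1QC behaved unlike its partner chain C1QB. C1QC was at 4.05, 12.2, 13.2, 19.4 and 5.84 CPM in the pons of sheep 687, 688, 690, 694 and 699, and C1QB at 13.0, 22.3, 23.8, 23.0 and 15.0 CPM. The ratio of C1QC to C1QB was thus 0.313, 0.550, 0.553, 0.843 and 0.388. In the cerebella it was 0.592, 0.588, 0.750, 0.754 and 0.477. Pons and cerebellum held the 2 lowest ratios in 5 of 5 sheep, and the medians of the other 8 regions lay between 0.909 and 1.08. Within each sheep the remaining regions did not reach down to these values; the closest was sheep 690, with 0.750 in the cerebellum and 0.773 in the lowest of the 8. In the fit, C1QC in the pons differed from the other 9 regions by -0.48 (SE 0.26, adjusted p = 0.135), by -0.53 with the animal block (adjusted p = 0.0422) and by -0.80 without the cerebellum (adjusted p = 0.0137), when it was the 1 member called in the pons, where 47.6% of genes were. With block and without cerebellum C1QC was at -0.83 (adjusted p = 0.00167) and TREM2 at 0.41 (adjusted p = 0.0275), both called, where 51.4% of genes were. In these 4 fits, in the same order, C1QB differed by 0.27 (adjusted p = 0.298), 0.28 (0.219), 0.02 (0.950) and 0.05 (0.840). Both chains come from 1 protein complex and the ratio was singled out after its values were seen, so it has no test.

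**Figure D2:**
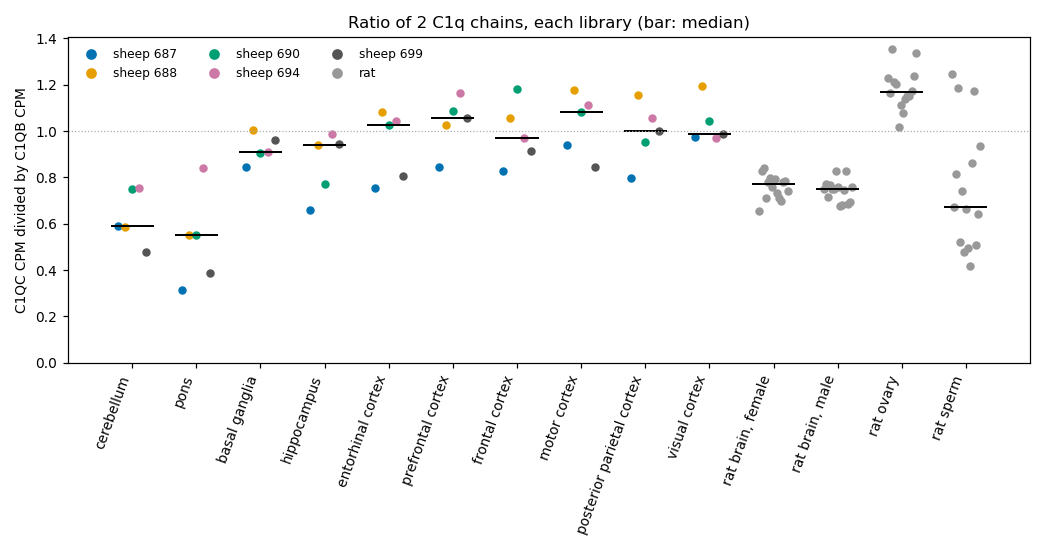
Ratio of C1QC to C1QB CPM in each library (vertical axis, linear, from 0) by group (horizontal axis); sheep are coloured by animal, rats are grey, bars are medians and the dotted line marks a ratio of 1. Cerebellum (0.477 to 0.754) and pons (0.313 to 0.843) lie low among sheep regions, and all ovary ratios (1.02 to 1.35) lie above all rat brain ratios (0.655 to 0.842).

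Sheep differed from each other through many regions. With region in the fit, 5 members differed among the 5 sheep, where 21.6% of genes did: C1QA (adjusted p = 1.35e-04), CX3CR1 (0.00529), C1QC (0.00546), CSF1R (0.0125) and TMEM119 (0.0154). The median of the summed level over regions was 172 CPM in sheep 687, 208 in 688, 342 in 690, 302 in 694 and 301 in 699. Sheep 690 had the highest sum in 4 regions, sheep 694 in 3, sheep 699 in 2 and sheep 688 in 1, while sheep 688 had the lowest sum in 5 regions and sheep 687 in 4. Sheep 690 weighed most: without it no member was called, though fewer genes were called over all genes too. Without sheep 687 1 member was called, and the share of all genes called in that fit is not given here. Without the cerebellum 9 members were called, all but TYROBP (adjusted p = 0.0549), where 20.3% of genes were. As a share of the variance of log2(CPM + 1), region took 57.1 to 68.7% per gene and animal 6.99 to 22.8% over all libraries; without the cerebellum region took 12.0 to 28.7% and animal 26.3 to 51.5%.

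In sheep sperm CX3CR1 and TREM2 were at 0 in 4 of 5 libraries, while AIF1 and TYROBP had counts in all 5. CX3CR1 was at 0 counts in 4 of 5 sperm libraries and at 0.474 CPM (14 counts) in that of sheep 694. P2RY12 was at 0, 0.936, 0.511, 3.39 and 0 CPM in sheep 687, 688, 690, 694 and 699, and TMEM119 at 0.0768, 0.854, 0.511, 2.84 and 0.380 CPM. In plain CPM none of these values reached a sheep brain library, of which the lowest were 3.89, 6.26 and 3.35 CPM. On the TMM scale CX3CR1 still did not overlap, but P2RY12 (up to 11.1 in sperm, from 4.72 in brain) and TMEM119 (up to 9.33 in sperm, from 2.53 in brain) did. TREM2 was at 0 in 4 libraries and at 0.107 CPM (7 counts) in sheep 687. A count of 0 allowed up to 3 counts, which is 0.0461 to 0.219 CPM by library, for counting error only. C1QA, C1QB and C1QC were at 0 to 0.915 CPM. AIF1 was at 1.78, 1.59, 0.803, 6.97 and 6.12 CPM, highest in sheep 694 and 699. CSF1R was at 0.0768, 3.88, 1.39, 26.8 and 0.548 CPM and TYROBP at 1.11, 10.3, 1.90, 66.3 and 1.64 CPM, with sheep 694 far above the others in both of these genes.

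Against the mean of the 10 brain regions, called at an adjusted p below 0.05 and a log2 fold change of at least 1 in size, 8 members were lower in sheep sperm and 1 was higher, where 74.2% of genes were called, 41.1% lower and 33.1% higher. The fitted log2 differences were -6.37 for CX3CR1 (SE 0.60, adjusted p = 7.41e-14), -5.40 for TREM2 (SE 0.50, adjusted p = 4.63e-14), -3.59 for C1QC (SE 0.48) and -3.31 for P2RY12 (SE 0.50); those of CX3CR1 and TREM2, at 0 in 4 of 5 sperm libraries, depend on the prior count added and are no bound. C1QB, TMEM119, C1QA and CSF1R were at -2.97, -2.39, -2.26 and -1.56. The members' median was -2.68, against -0.42 over all genes, a value that was -0.17 with RLE factors and 1.05 with DESeq2. TYROBP was at 2.99 (SE 0.27, adjusted p = 1.03e-14), a direction that rests on TMM scaling and in size on sheep 694: without that library it was 1.29 (adjusted p = 1.93e-05), and in plain CPM sperm was above brain in 2 of 5 sheep. AIF1 was at 0.73 (SE 0.24, adjusted p = 0.00442), under the fold limit, with a TMM-scaled median of 15.6 CPM in sperm and 11.1 in brain; in plain CPM it was lower in sperm in 5 of 5 sheep. Without sheep 694 CX3CR1 was at 0 in every sperm library, so its fitted value has no meaning as a size, and P2RY12 and TMEM119 stood at -4.46 and -3.08; without sheep 687 TREM2 was at 0 in every sperm library. CSF1R moved from -1.56 to -3.33 without sheep 694, and with the 10 regions of each sheep summed to 1 sample its adjusted p was 0.0725, so 8 members were called. The share of all genes called in that fit of summed regions is not given here. The 50 brain libraries came from 5 sheep and are not independent. Neutrophil markers, whose receptors also use TYROBP, summed to 1580, 39923, 18424, 9478 and 10180 CPM in sheep 687, 688, 690, 694 and 699, against at most 9.09 CPM in brain. Of 7 such genes tested, 6 were higher in sperm. The pan-myeloid sum was 780 CPM in sheep 694 and 25.4 to 185 CPM in the other 4. The border-associated macrophage markers summed to 2.41 to 30.8 CPM in sperm and 11.0 to 55.7 CPM in brain. The part of these cells in the TYROBP value was not tested.

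In rat brain the 10 genes did not differ detectably between sexes. Cx3cr1 was at a median of 39.3 TMM-scaled CPM in 14 females (27.6 to 43.4) and 34.8 in 15 males (27.4 to 48.6). P2ry12 was at 13.3 (11.4 to 18.4) and 13.6 (9.63 to 18.5), and Csf1r at 50.5 (42.2 to 62.0) and 48.8 (37.4 to 67.7). The ranges of the sexes overlapped for all 10 genes. No member was called by edgeR's quasi-likelihood test or by DESeq2, where edgeR called 0.18% of all genes, and none was at an unadjusted p below 0.05. The female minus male log2 differences lay between -0.15 (Tyrobp, SE 0.16, adjusted p = 0.797) and 0.12 (Tmem119, SE 0.13, adjusted p = 0.810).

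**Figure D3:**
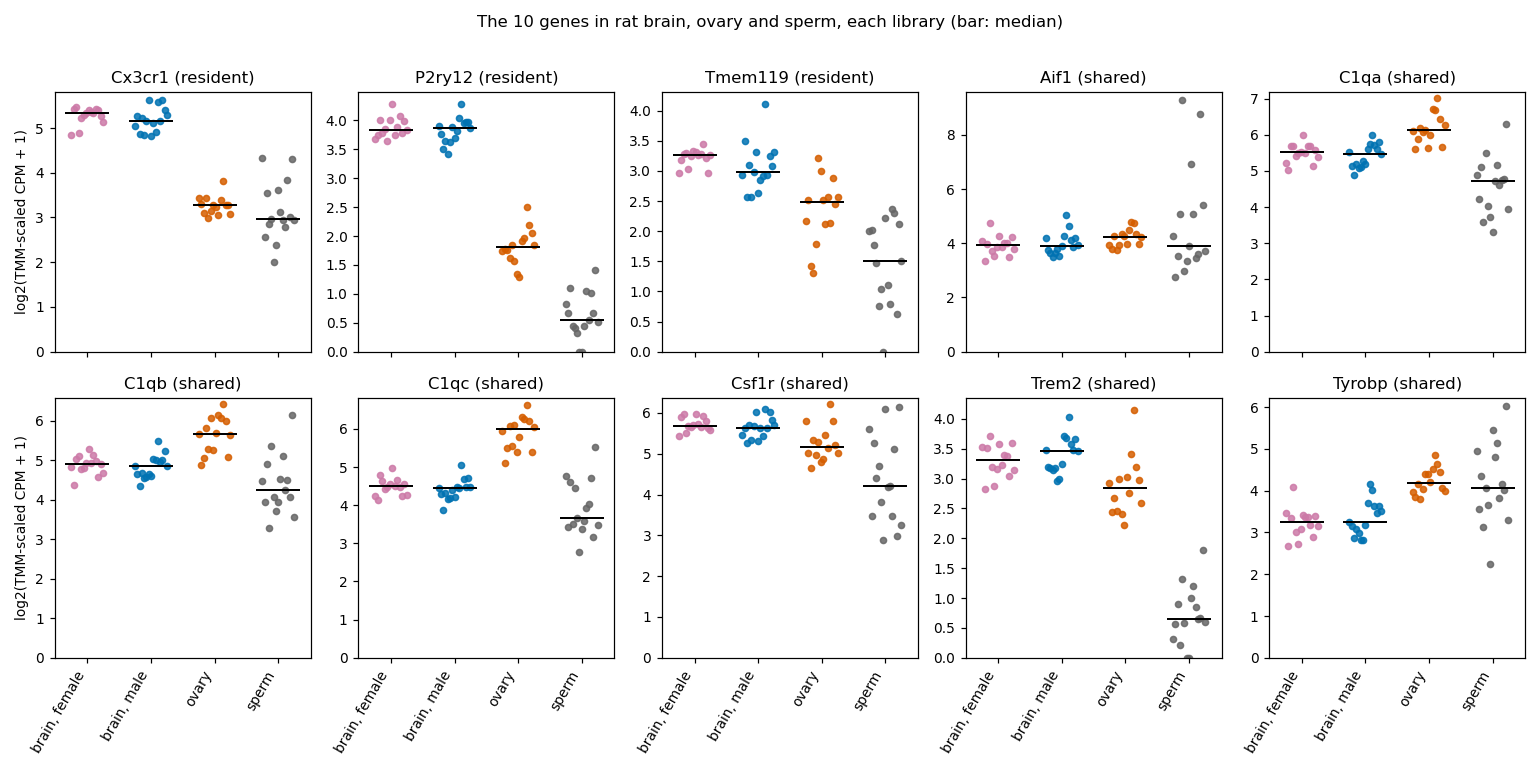
Each of the 10 rat genes in every library as log2(TMM-scaled CPM + 1) (vertical axis, log scale of the value) by group (horizontal axis): female brain (14), male brain (15), ovary (14) and sperm (15), with bars at the medians. Cx3cr1 and P2ry12 in ovary lie under all female brain points, C1qc in ovary lies above them, and 3 sperm libraries stand high for Aif1.

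In the ovary the resident genes were lower than in female brain while the complement chains and Tyrobp were higher, though not all of them past the fold limit. Cx3cr1 was at a median of 8.67 TMM-scaled CPM (6.92 to 13.0) in ovary and 39.3 (27.6 to 43.4) in female brain, and P2ry12 at 2.50 (1.46 to 4.65) and 13.3 (11.4 to 18.4). Neither gene's values overlapped between tissues, and both were lower in the ovary in 14 of 14 rats. The log2 differences were -2.11 for Cx3cr1 (SE 0.09, adjusted p = 1.88e-20) and -2.41 for P2ry12 (SE 0.13, adjusted p = 2.65e-17). Tmem119 was at 4.58 (1.47 to 8.24) in ovary and 8.61 (6.80 to 9.85) in brain and lower in 14 of 14 rats, with a log2 difference of -0.93 (SE 0.18, adjusted p = 2.44e-05), short of the fold limit; with the animal as a block it was -1.06 (adjusted p = 3.86e-05) and was called.

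Of the complement chains, C1qc was at 62.6 TMM-scaled CPM (33.2 to 97.6) in ovary and 21.5 (16.4 to 30.3) in female brain. The values did not overlap, and the log2 difference was 1.47 (SE 0.13, adjusted p = 6.94e-12). C1qa and C1qb were at 0.73 (SE 0.13) and 0.84 (SE 0.14), with adjusted p-values of 5.75e-06 and 1.20e-06, under the fold limit. The adaptor Tyrobp rose by 1.10 (SE 0.13, adjusted p = 7.41e-09) and was higher in ovary in 13 of 14 rats, whereas its receptor partner Trem2 was at -0.40 (SE 0.17, adjusted p = 0.0276). The ratio of Tyrobp to Trem2 CPM was 1.44 to 5.53 in ovary and 0.793 to 1.44 in rat brain. Csf1r was at -0.42 (SE 0.12, adjusted p = 0.00237) and Aif1 at 0.30 (SE 0.13, adjusted p = 0.0330). Thus 4 members were called, 2 in each direction, where 56.9% of genes were called, 27.7% higher and 29.2% lower. A count of 2 of 10 in each direction is under these shares of all genes. Without the fold limit all 10 passed. The share of all genes passing without that limit is not given here, so the 10 cannot be set against it. The median log2 difference was -2.11 over the 3 resident and 0.73 over the 7 shared genes.

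The ovary held other macrophage and leukocyte markers at levels well above brain, and their part in these differences was not tested. All 8 of 8 border-associated and tissue macrophage genes tested rose in the ovary. The mannose receptor MRC1 was at medians of 49.3 and 2.44 CPM in ovary and female brain (log2 difference 4.08, SE 0.16), and the list summed to 115 to 257 CPM in ovary and 1.16 to 22.6 CPM in female brain. Of 11 pan-myeloid genes, 7 rose and 1 fell; CD14 rose by 4.81 (SE 0.15) and CD68 by 4.44 (SE 0.20). Of 7 lymphocyte genes, 6 rose, and of 13 complement genes, 11 rose. The further microglia-enriched genes split: SALL1 fell by 2.34 (SE 0.20) and ADORA3 by 2.02 (SE 0.14), OLFML3 rose by 4.30 (SE 0.12), and in all 4 of 11 fell and 2 rose. Ligands split too. IL34 was at a median of 14.4 CPM in ovary and 31.7 in brain and fell by 1.32 (SE 0.13), CX3CL1 fell by 2.93 (SE 0.12), and CSF1 was at 0.86 (SE 0.15), under the fold limit.

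In the rat sperm samples the members were neither uniformly low nor uniform between libraries. P2ry12 was at a median of 0.465 TMM-scaled CPM (0 to 1.66) against 13.6 (9.63 to 18.5) in male brain, and Trem2 at 0.561 (0 to 2.50) against 10.0 (6.80 to 15.3). Neither gene overlapped between the groups. Their values of 0 came from sperm libraries 16 and 17, which stand apart: they had 13730 and 13059 genes with a count, against 21614 to 30592 in the other 13. Of those genes, 13101 and 12564 were at 1 CPM or more, so few had lower values there. A 0 in these libraries may stand for a value under 1 CPM. The level of 3 counts, 0.113 and 0.219 plain CPM, is therefore no bound. P2ry12 and Trem2 were both lower in sperm in 15 of 15 rats, and they fell by 4.42 (SE 0.41, adjusted p = 3.62e-11) and 3.69 (SE 0.45, adjusted p = 1.04e-08). Without libraries 16 and 17 the values were -4.22 for P2RY12 and -3.49 for TREM2. Cx3cr1 fell by 2.01 (SE 0.21, adjusted p = 5.03e-10) and Tmem119 by 1.86 (SE 0.39, adjusted p = 7.63e-05). Neither of these overlapped with male brain on the TMM scale. C1qa, C1qb, C1qc and Csf1r were at medians of 25.3, 17.8, 11.6 and 17.5 TMM-scaled CPM in sperm against 43.3, 27.7, 20.7 and 48.8 in male brain, and all 4 overlapped. Their log2 differences were -0.65 (adjusted p = 0.0120), -0.24 (0.336), -0.30 (0.214) and -0.91 (0.00579), none past the fold limit; with the animal block Csf1r (CSF1R) was at -1.30 (adjusted p = 0.00211) and was called, as it was without libraries 16 and 17 (adjusted p = 0.00127).

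Aif1 and Tyrobp were the 2 members called higher in rat sperm, for a total of 6 called members where 59.1% of genes were called, 27.7% higher and 31.5% lower. Tyrobp was at a median of 15.6 TMM-scaled CPM (3.73 to 64.7) against 8.49 (6.01 to 17.0) in male brain, a log2 difference of 1.19 (SE 0.29, adjusted p = 4.95e-04). With the animal block it was 0.91 (adjusted p = 0.00299), under the fold limit. In plain CPM Aif1 was at 137, 494 and 556 in sperm libraries 3, 7 and 14 and at 5.09 to 34.8 CPM in the other 12. Its log2 difference of 2.63 (SE 0.64, adjusted p = 4.63e-04) rested on those 3 libraries: without them it was 0.16 (adjusted p = 0.594), with the animal block 0.56 (adjusted p = 0.338), and on the TMM scale Aif1 was higher in sperm in 7 of 15 rats. The spermatid markers summed to 6138, 15143 and 16068 CPM in libraries 3, 7 and 14, the same order as for Aif1, and to 180 to 4410 CPM in the other 12. Whether germ cells carried the Aif1 counts was not tested. Pan-myeloid genes rose in 8 of 11 (CYBB by 3.85, SE 0.31), lymphocyte genes in 8 of 8 and border-associated macrophage genes in 5 of 8, with 1 lower. Of the further microglia-enriched genes 4 of 10 fell and 3 rose; SALL1 was called lower, at a median of 0 CPM (0 to 0.450) in sperm against 27.6 CPM (2.65 to 37.3) in male brain, P2RY13 fell by 3.52 (SE 0.42) and the lysophospholipid receptor GPR34 by 3.16 (SE 0.21).

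Between ovary and rat sperm 7 members were called, where 50.8% of genes were, 27.9% higher and 22.9% lower in ovary. Ovary was higher for Trem2 (log2 difference 3.27, SE 0.47, adjusted p = 4.28e-07), P2ry12 (2.18, SE 0.41, adjusted p = 2.91e-05), C1qc (1.95, SE 0.23, adjusted p = 7.81e-09), C1qa (1.53), C1qb (1.22) and Tmem119 (1.14), and lower for Aif1 (-2.47, SE 0.67, adjusted p = 0.00173). Trem2 did not overlap between the 2 groups. Cx3cr1 differed by 0.04 (SE 0.21, adjusted p = 0.869) and Tyrobp by -0.18 (SE 0.28, adjusted p = 0.569). Without sperm libraries 3, 7 and 14 the calls for Aif1 (-0.13, adjusted p = 0.644) and Tmem119 (0.65, adjusted p = 0.157) were lost. Organ and sex cannot be told apart in this comparison.

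**Figure D4:**
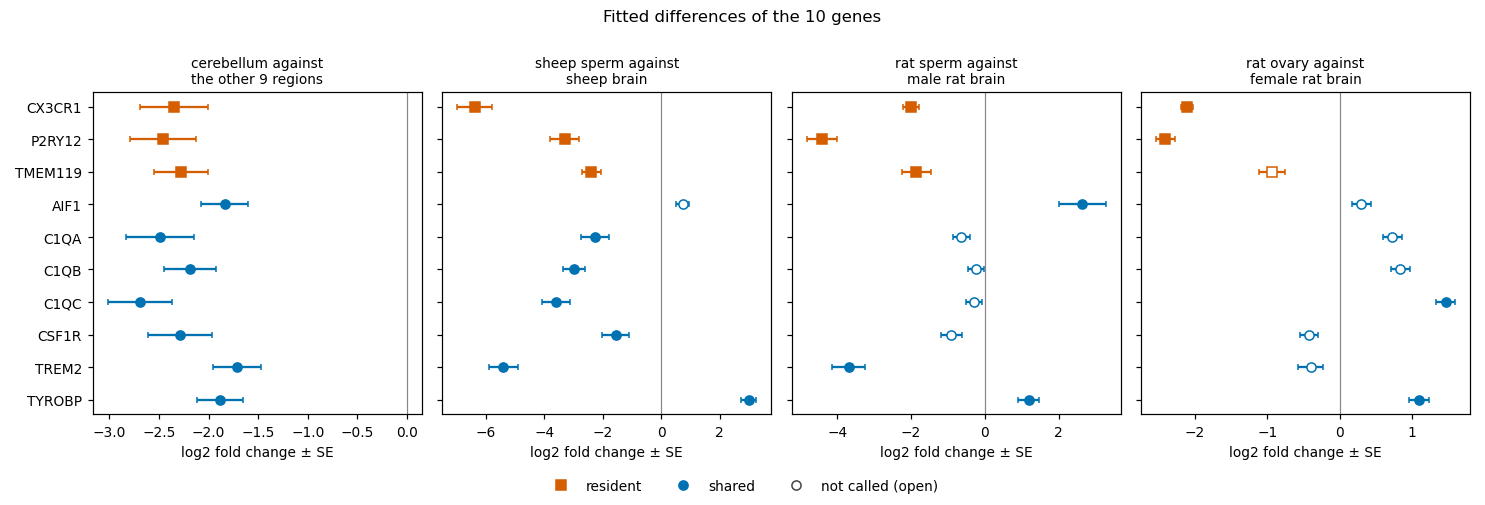
Fitted log2 fold change (horizontal axis, points with bars of 1 SE) of the 10 genes (vertical axis) in 4 comparisons, with resident genes as orange squares and shared genes as blue circles; open symbols were not called. All 10 lie left of 0 in the cerebellum, while in the other panels the resident genes lie left of 0 and TYROBP right of it.

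Set against each other, the resident class took a smaller share of the summed level outside the brain than within it. The resident genes made up 29.5 to 45.6% of the summed CPM of the 10 genes in the 50 sheep brain libraries, and the medians of the 10 regions lay between 37.5 and 41.5%. The cerebellum, lowest in both classes, had a median of 37.6% (35.8 to 38.8%). In rat brain the share was 25.5% (19.6 to 29.7%) in females and 23.8% (19.7 to 29.6%) in males; the species' tables were counted separately and are not compared. In ovary it was 5.48% (3.74 to 8.53%), in rat sperm 8.43% (1.01 to 12.1%) and in sheep sperm 6.27% (2.31 to 19.4%). None of these ranges reached that of the brain of the same species. The sheep sperm shares rest on few reads. In sheep 687 and 699 TMEM119 was the only resident gene with counts, 5 and 18. In sheep 690 P2RY12 and TMEM119 had 7 counts each and CX3CR1 had 0. As a difference of the median log2 ratio of resident to shared sums, sheep sperm stood at -3.26 from sheep brain, rat sperm at -1.77 from male brain, ovary at -2.56 from female brain and the cerebellum at -0.16 from the other regions. These are descriptions without a test. A sum of CPM weighs long and abundant genes most; with the mean log2(CPM + 1) of each class in place of sums, the differences were -1.48, -1.52, -2.20 and -0.39. Leaving Aif1 out of the rat sperm sums gave a median share of 9.40% (5.02 to 14.5%).

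**Figure D5:**
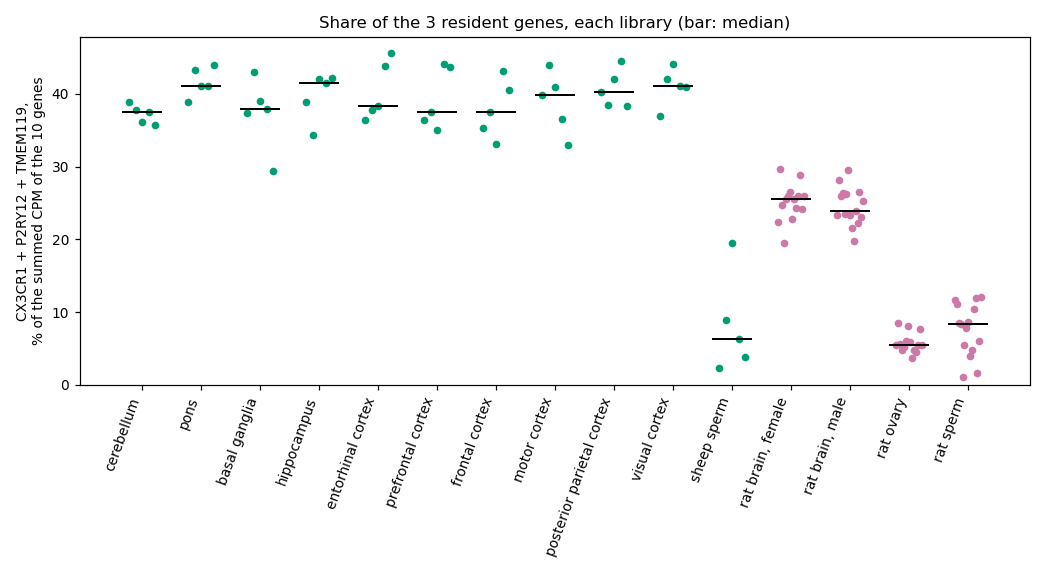
Share of CX3CR1, P2RY12 and TMEM119 in the summed CPM of the 10 genes, in percent (vertical axis, linear, from 0), for each library by group (horizontal axis), with bars at the medians; green points are sheep and pink points are rats. The sheep regions lie between 29.5 and 45.6% and rat brain between 19.6 and 29.7%, while ovary and both sperm groups lie at or under 19.4%. The sperm shares of sheep 687, 690 and 699 rest on few reads.

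Within brain the members moved together from library to library. Over the 50 sheep brain libraries the 45 pairs of log2(CPM + 1) had correlations of 0.75 to 0.98 (median 0.90), with CX3CR1 and CSF1R the closest pair; without the cerebellum they were 0.41 to 0.95 (median 0.77). In rat brain without libraries 1 and 4 they were 0.44 to 0.98 (median 0.79), in ovary -0.14 to 0.97 (median 0.53) and in rat sperm -0.39 to 0.92 (median 0.50). These libraries share animals, depth and tissue makeup, and the correlations are given as descriptions. All were taken on plain CPM. In rat brain without libraries 1 and 4, the ribosomal RNA entries still held 2.39 to 54.0% of the counts. The part of this in the correlations was not tested. In ovary the resident genes did not move as a group, with a median correlation of -0.10 among them, and C1qb and C1qc were the closest pair.

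The genes whose level followed the mean of the 10 members most closely over the 50 sheep brain libraries were LAPTM5, a lysosomal protein of blood cells (r = 0.972), VAV1, a signalling protein of blood cells (0.972), CYTH4 (0.969), the checkpoint protein VSIR (0.964) and the complement component C3 (0.962). Over the 29 rat brain libraries they were TMEM176B and TMEM176A (both 0.996), the lysosomal protease CTSS (0.996), RNASET2 (0.994) and FCGR2AL1 (0.994), where libraries 1 and 4 stretch every correlation. Of the first 50 in each species, 3 were shared (CTSS, CYTH4 and LAPTM5), which is 6% of either list; without the cerebellum in sheep and without libraries 1 and 4 in rat, 6 were. Of the first 50, 8 in sheep and 2 in rat stood in the pan-myeloid or further microglia lists.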

How the data were processed

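Polyadenylated RNA of sheep brain regions and sperm and of rat brain, ovary and seminal fluid was sequenced as stranded paired-end libraries on a NovaSeq X Plus. The deposited values are whole-number counts per gene, which the authors made, per the submitters' processing notes and the labels, with Trimmomatic 0.39, STAR 2.7.5a and Rsubread 2.20.0, with rat reads aligned to GRCr8 and sheep reads to ARS-UI_Ramb_v3.0. Their settings for strand and multi-mapping are not stated in the sources at hand. From these counts, CPM was taken on plain library totals. Tests used edgeR 4.0.16 (R 4.3.3) with TMM factors, filterByExpr, a prior count of 0.125 and the quasi-likelihood test, adjusted over all genes of each fit. SE is the size of the log2 fold change over the square root of F. Tissue comparisons were called at an adjusted p below 0.05 and a log2 change of at least 1, the others at an adjusted p below 0.05. DESeq2 1.42.0, RLE factors, no count filter, an animal block and left-out libraries were alternatives. The scripts were tested on simulated counts.

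The 10 members and all lists of other cells and partners were chosen with earlier results of these data known. From each list at most 3 called genes with the largest fold and at least 1 CPM are named; the ligands CSF1 and CX3CL1, the label markers, AKAP4 and CD68 in sheep were named after their values were seen. Sheep regions came from the same 5 animals and were fitted as separate libraries. Rat brain and sperm, or brain and ovary, with the same number were read as 1 animal from the series text. Deviations of same-numbered libraries correlated at a median of 0.061 (15 rat brain and sperm pairs), 0.026 (14 brain and ovary pairs), 0.183 (225 pairs of sheep regions) and 0.035 (50 sheep sperm and region pairs). Intervals of 3 counts cover counting error only. The low-brain-library, left-out sperm library and left-out cerebellum fits were chosen after seeing the data.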

Additional observations from a re-analysis of the deposited data

Results flagged for a closer look

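In 10 of 110 gene and group pairs with 4 to 10 samples, 1 sample stood apart from the rest by Dixon's criterion. Chance alone marks about 1 in 20 groups of independent, normal values. The 110 pairs share libraries, so 10 of 110 cannot be set against that rate. Of the 10, 5 were the sperm library of sheep 694, with CX3CR1 at 0.474 CPM (next highest 0), P2RY12 at 3.39 CPM (0.936), TMEM119 at 2.84 CPM (0.854), CSF1R at 26.8 CPM (3.88) and TYROBP at 66.3 CPM (10.3). That library also had the highest pan-myeloid sum, 780 CPM, and the highest PTPRC level, 44.0 CPM, of the 5 sperm libraries. TREM2 was at 0.107 CPM in the sperm of sheep 687 and at 0 in the others. Where all other values are 0, as for CX3CR1 and TREM2 in sperm, any count is marked. In brain, TREM2 was at 6.98 CPM in the cerebellum of sheep 688 (next 3.28), C1QA at 15.7 CPM (8.70) and TYROBP at 12.0 CPM (8.48) in the frontal cortex of sheep 690, and AIF1 at 19.6 CPM in the prefrontal cortex of sheep 687 (13.1).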

How the results depend on the processing

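All 10 members were called in the cerebellum under every alternative run, and none between the sexes. The count of members called across regions went from 10 to 0 without the cerebellum and to 6 with the animal block added there. In the basal ganglia it was 0 without the cerebellum (0 with the block too), 0 with a fold limit and 0 to 7 with 1 sheep left out; in the pons 1, 2, 0 and 1 to 3; in the posterior parietal cortex 0, 0, 0 and 0 to 6. Among sheep it was 9 without the cerebellum and 0 to 7 with 1 sheep left out. For single regions and for differences among sheep, the share of all genes called with 1 sheep left out is not given. Ovary against brain gave 10 without a fold limit, again with no share of all genes beside it. Cx3cr1 (CX3CR1) in ovary against sperm reversed to -0.00316 with DESeq2, -0.00482 with RLE factors, -0.036 without a count filter and -0.29 without sperm libraries 3, 7 and 14. With mean log2 values in place of sums, resident against shared genes stood at -1.48 (sheep sperm), -1.52 (rat sperm), -2.20 (ovary) and -0.39 (cerebellum); the sheep sperm value was -3.66 to -2.98 with 1 sheep left out. The causes were not tested. The replicate block changed no call other than those given with the results.

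Over all genes, rat sperm against brain gave 12111 calls, 22067 without a count filter and 18371 with DESeq2; ovary against brain 11832 and 18799 without the filter; ovary against sperm 9971, 16087 with DESeq2 and 19449 without the filter; the sexes 37, 153 with DESeq2 and 74 without brain libraries 1 and 4. Sheep differences gave 4558 and 2887 without sheep 690, and the posterior parietal cortex 2202 and 786 without the cerebellum. In sheep sperm 7239 of 16215 calls were higher, and 9913 of 18031 with DESeq2. Of single members' results, 652 of 786 stayed on their side of the threshold, 115 lost it, 15 gained it and 4 reversed. Genes at 0 to 3 counts in sperm are limited by depth. In rat sperm libraries 16 and 17 few genes had counts under 1 CPM, so depth gives no bound there.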
